A study of Mus musculus with 20 samples.

Results

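The subject is a split of amygdala RNA libraries by how much they held of 6 genes that neurons switch on within minutes of firing. Each library was given an activity score, the mean log2(CPM + 1) of Fos, Junb, Egr1, Arc, Nr4a1 and Npas4, where CPM is a gene's count relative to the library's total on the usual per-1e6 scale. In each of 4 groups the 2 libraries with the highest score and the 2 with the lowest were taken, which gave 8 high-score and 8 low-score libraries. They are 16 of the 20 libraries of the series, and the middle library of each group is in neither class. The classes were chosen by these measured values, so the 6 genes are described below without a test between the classes.

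All mice were males of the strain labelled C57B6, bred in house from Taconic stock, and were killed at postnatal day 84 without earlier behavioural testing. Generation (F1 or F2) and lineage (stress or no-stress) make the 4 groups, with 5 mice each. They are the descendants of a line that had gone through chronic unpredictable stress, or of a line that had not. No agent or engineered allele is named for any group. Amygdala punches were taken on each side of the brain, and each mouse gave 1 stranded poly-A library. The labels name no sire, litter, batch or time of day, so mice of a group may be less independent than the tests assume, and p-values measure the spread between these samples. The table holds counts for 29671 genes, with totals of 13654890 to 13714805 per library; the depth before these near-equal totals were made is not given in the sources used here. As a mean log2(CPM + 1) over each list, markers of central amygdala neurons ran from 3.93 to 5.36 over the libraries. Those of excitatory neurons ran from 2.41 to 5.11 and those of striatal neurons from 4.37 to 8.23.

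Immediate early genes are transcribed after synaptic activity from factors already present in the neuron, without new protein synthesis. Calcium entry and kinase signalling act on CREB, which binds the cAMP response element, and on SRF, which binds the CArG box. Several of their products, such as Fos, Jun, Egr and Npas4 proteins, are transcription factors that drive a slower set of genes, which includes Bdnf and Nptx2. In the amygdala, Fos and Arc are widely used to mark cells recruited during fear learning.

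The stretches below show the 250 bases before the annotated start of 4 score genes and of Btg2 and Dusp1, to show where the letters of the element that CREB binds occur. Capitals mark TGACG or its reverse complement CGTCA, the core of the cAMP response element TGACGTCA. The sequences are from RefSeq (GRCm38.p6) and run 5′ to 3′ toward the start. Btg2 and Dusp1 were chosen after their values were seen, as rapid genes with an unadjusted p below 0.05 and the whole element.
Fos promoter, chr12:85473640-85473889, plus strand: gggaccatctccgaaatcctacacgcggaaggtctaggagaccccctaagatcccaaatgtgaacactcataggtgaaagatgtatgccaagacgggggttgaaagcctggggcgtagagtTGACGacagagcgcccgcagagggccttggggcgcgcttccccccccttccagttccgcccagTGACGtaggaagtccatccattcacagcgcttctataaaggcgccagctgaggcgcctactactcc
Junb promoter, chr8:84978749-84978998, minus strand: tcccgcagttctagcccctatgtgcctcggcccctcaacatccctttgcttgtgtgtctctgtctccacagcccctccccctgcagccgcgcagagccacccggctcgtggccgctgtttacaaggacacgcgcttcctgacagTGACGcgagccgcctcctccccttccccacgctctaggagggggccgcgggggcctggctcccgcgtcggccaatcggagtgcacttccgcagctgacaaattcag
Nr4a1 promoter, chr15:101266596-101266845, plus strand: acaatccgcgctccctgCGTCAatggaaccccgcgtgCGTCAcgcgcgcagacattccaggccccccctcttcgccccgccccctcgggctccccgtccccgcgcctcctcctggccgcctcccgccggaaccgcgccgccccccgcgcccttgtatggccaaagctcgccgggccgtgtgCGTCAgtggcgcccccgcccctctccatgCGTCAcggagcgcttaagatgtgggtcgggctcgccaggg
Npas4 promoter, chr19:4989972-4990221, minus strand: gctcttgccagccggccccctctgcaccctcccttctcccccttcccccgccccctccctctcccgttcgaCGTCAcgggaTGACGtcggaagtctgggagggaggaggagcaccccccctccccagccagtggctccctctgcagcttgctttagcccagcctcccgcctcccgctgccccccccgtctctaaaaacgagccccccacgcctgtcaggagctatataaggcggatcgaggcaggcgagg
Btg2 promoter, chr1:134079156-134079405, minus strand: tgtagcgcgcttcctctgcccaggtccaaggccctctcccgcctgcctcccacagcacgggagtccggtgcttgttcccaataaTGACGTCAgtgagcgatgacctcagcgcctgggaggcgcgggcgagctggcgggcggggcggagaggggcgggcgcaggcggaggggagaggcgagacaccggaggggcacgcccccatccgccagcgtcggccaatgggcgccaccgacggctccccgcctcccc
Dusp1 promoter, chr17:26508473-26508722, minus strand: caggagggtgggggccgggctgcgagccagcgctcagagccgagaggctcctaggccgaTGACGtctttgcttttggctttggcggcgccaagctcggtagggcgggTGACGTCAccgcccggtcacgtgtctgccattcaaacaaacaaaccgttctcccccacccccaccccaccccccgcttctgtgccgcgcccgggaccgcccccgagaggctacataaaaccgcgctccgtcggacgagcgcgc
No whole element and no CArG box lay in these stretches of Fos, Junb, Nr4a1 and Npas4, the score genes with an entry. The core was present in 4 of 4, and in Fos, Nr4a1 and Npas4 at 2 or more places. Among all 32851 listed promoters of the same length, searched on either strand, 1.55% held the whole element, 1.47% a CArG box, 4.46% an AP-1 site (TGACTCA or TGAGTCA) and 17.8% the core. The core stood at 2 or more places in 3.9%, where a whole element counts as 2 overlapping places. Of the 34 other rapid genes tested below, 27 had an entry, of which 6 held the whole element, 2 a CArG box, 1 an AP-1 site and 17 the core. A gene with several listed starts was counted if any of them held the match, whereas the shares above are per listed promoter. The 2 are therefore not on the same footing. The median log2 difference between high-score and low-score libraries was 0.095 for the 8 genes with a whole element or a CArG box and 0.193 for the 19 without. A match describes letters in this window and is not a site of binding.

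The score ran from 4.22 to 5.77 over the 20 libraries. In F1 it was 4.59 ± 0.261 (SD, n = 5) for the stress and 4.521 ± 0.205 for the no-stress lineage, and in F2 it was 4.704 ± 0.355 and 5.324 ± 0.297. The classes are therefore relative to a group. The low-score libraries of F2 no-stress, at 4.984 and 5.205, stood above 4 and 6 of the 6 high-score libraries of the other groups, which ran from 4.575 to 5.11. The gap between the class means for the stress and no-stress lineage was 0.427 and 0.355 in F1, and 0.705 and 0.508 in F2. At the edges of the classes the spacing was small in some groups. The lower of the high-score libraries was 0.041 above the middle library in F1 stress, and the upper of the low-score libraries was 0.021 below it in F2 no-stress. In F2 stress the same distances were 0.323 and 0.296.

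**Figure D1:**
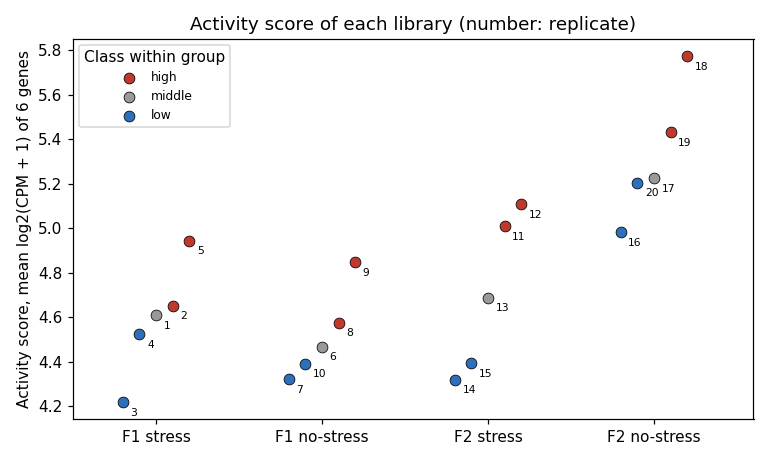
Activity score (mean log2(CPM + 1) of the 6 score genes) of each of the 20 libraries by group, with the replicate number beside each point and the class within the group as colour. F2 stress shows the widest spacing between classes, 0.705 between their means, and the F2 no-stress libraries sit higher than most others.

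The 6 genes did not contribute alike to the split. Fos, a subunit of the AP-1 factor, ran from 9.28 through a median of 18.7 to 33.0 CPM in the high-score libraries and from 6.86 through 9.81 to 15.2 in the low-score ones. Its class means differed by 0.84 on the log2 scale, and both high libraries lay above both low ones in 3 of 4 groups. F1 no-stress was the exception, where all 5 libraries held between 7.30 and 12.4 CPM of Fos. Arc, which encodes a cytoskeletal protein of recently active synapses, ran from 37.6 through 61.6 to 113 CPM against 22.4 through 40.5 to 77.4, a log2 difference of 0.62. The classes were apart in the same number of groups, with F1 stress as the exception. Nr4a1, an orphan nuclear receptor, ran from 32.5 through 46.7 to 60.2 CPM against 15.5 through 27.3 to 60.8, a log2 difference of 0.67. Its highest value of all came from a low-score library of F2 no-stress.

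Egr1, a zinc finger factor, ran from 129 through 163 to 246 CPM in high-score libraries and from 86.8 through 145 to 172 in low-score ones, a log2 difference of 0.41. Only in 1 group were both high libraries above both low ones. Junb, the AP-1 partner, had a log2 difference of 0.32, with 6.07 to 22.3 CPM against 4.96 to 17.4. Npas4, a factor that answers calcium entry in neurons, had a log2 difference of 0.14, with 7.03 to 24.2 CPM against 4.23 to 23.9. For Junb and Npas4 the mean of the high libraries lay above that of the low ones in 3 of 4 groups and below it in F2 stress. The split is thus mainly one of Fos, Nr4a1, Arc and Egr1, and Npas4 differed least between the classes. All these values chose the libraries and carry no test between the classes.

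**Figure D2:**
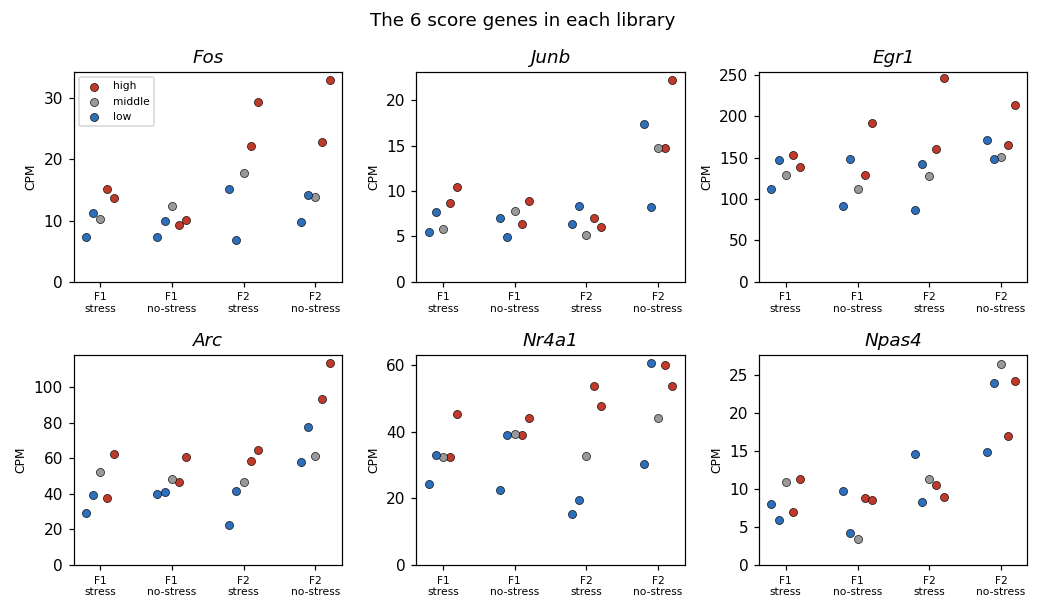
CPM (linear axis from 0) of each score gene in each of the 20 libraries by group, coloured by class and ordered within a group by score. Fos and Arc separate the classes in 3 of 4 groups, whereas high and low points of Npas4 are mixed in every group.

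Over the remaining genes the question was which transcripts follow the same split. The comparison of 8 with 8 libraries, with group as a block, was fitted with edgeR's quasi-likelihood test over 16717 genes. The p-values state how closely a gene follows a split made on other genes of the same libraries and test no treatment. At an adjusted p (Benjamini-Hochberg) below 0.05, 0 genes were called (0%), and the smallest adjusted p was 0.333. At an unadjusted p below 0.05 there were 2063 genes, 950 higher in high-score libraries (5.68%) and 1113 lower (6.66%). DESeq2 called 22 of 12700 genes (0.173%), 7 higher and 15 lower, and limma-voom called 0. The high-score mean lay above the low-score mean in 4 of 4 groups for 1731 genes (10.4%) and below it for 2105 (12.6%). All gene differences that follow are given as values on the log2 scale, high minus low, with the SE of the fit, and none of them passed edgeR's test.

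The other rapid activity genes, 34 tested of 38 listed, had a log2 difference above 0 in 31, against 48% of all genes tested. Their median was 0.20, and the median of all genes was -0.007. At an unadjusted p below 0.05, 8 were higher and 0 lower, against 5.68% and 6.66% of all genes. In 8 the high-score mean was above the low-score mean in 4 of 4 groups, against 10.4% of all genes. Of the 4 other AP-1 genes, 4 lay above 0, with a median of 0.345. Fosl2, a slower Fos relative, ran from 23.2 through 25.1 to 42.3 CPM against 14.7 through 19.9 to 24.4, a difference of 0.50 ± 0.14 (SE). Jun, the usual partner of Fos, ran from 18.8 through 28.8 to 48.1 CPM against 15.7 through 18.5 to 25.3, a difference of 0.56 ± 0.16. The classes overlapped for each, and Fosb at 0.19 ± 0.13 and Jund at 0.15 ± 0.12 lay closer to 0.

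The 5 other Egr and Nr4a genes lay above 0, but they spread widely. Egr2, a factor induced by strong or repeated stimulation, ran from 3 through 5.26 to 6.87 CPM against 1.46 through 2.59 to 5.27, a difference of 0.73 ± 0.27. Egr3, of the same family, ran from 56.7 through 70.8 to 95.6 CPM against 51.6 through 72.5 to 102, a difference of 0.01 ± 0.13. Nr4a2, which is also constitutive in some pallial neurons, had 0.30 ± 0.49, with low-score libraries from 3.07 to 44.4 CPM. Nr4a3 and Egr4 had 0.41 ± 0.26 and 0.25 ± 0.16.

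Among the 10 other regulators of transcription, 9 lay above 0. Btg2, an antiproliferative factor that recruits mRNA deadenylases, ran from 9.58 through 20 to 32.1 CPM against 7.03 through 10.8 to 16.1, a difference of 0.71 ± 0.16 with an adjusted p of 0.355 in edgeR and 0.0244 in DESeq2. Its high libraries were above its low ones in 3 groups, and in F1 no-stress all libraries of the classes lay between 9.58 and 11.3 CPM. Nfil3, a repressor with a basic leucine zipper, had 0.37 ± 0.14. Atf3, a stress-induced factor, had 0.74 ± 0.31 at no more than 1.09 CPM in any library of the classes. Klf4 had -0.15 ± 0.18. The 9 genes that end signalling or destroy mRNA had a median of 0.10 and 8 above 0. Dusp1, a phosphatase that switches off MAP kinases, ran from 12.7 through 22.7 to 29.3 CPM against 12.1 through 15.6 to 19.6, a difference of 0.50 ± 0.15. Zfp36, which directs AU-rich mRNAs to decay, had -0.20 ± 0.20, and Ier3 had 0.00 ± 0.14. Of the 6 genes for secreted and membrane proteins 5 lay above 0, Cyr61 at 0.28 ± 0.16 among them, and Ctgf spread from 2.56 to 60.9 CPM in the low-score libraries.

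**Figure D3:**
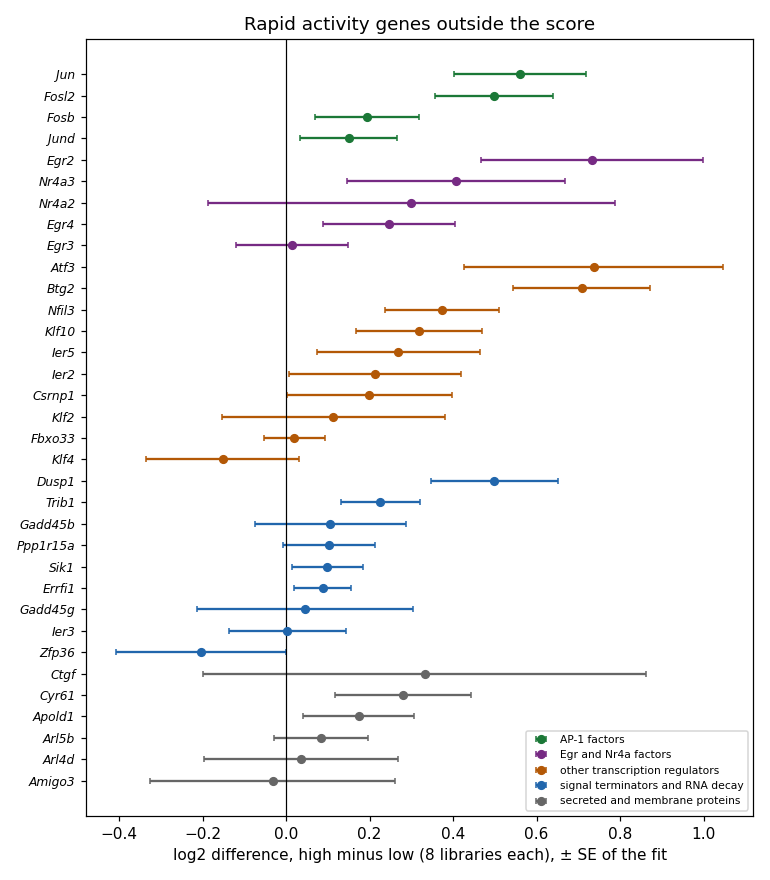
Log2 difference between 8 high-score and 8 low-score libraries, with the SE of the fit as bars, for the 34 rapid activity genes outside the score, coloured by role. In 31 genes the point lies above 0, the largest being Atf3 at 0.74 and Egr2 at 0.73, and the widest bars belong to Ctgf and Nr4a2.

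Markers of the neurons in the punch were set beside the split. Of 10 markers of excitatory neurons 10 lay above 0, with a median of 0.68 and 2 higher at an unadjusted p below 0.05. Over all genes these shares were 48% and 5.68%. Of 16 markers of striatal medium spiny neurons 16 lay below 0, with a median of -0.46 and 0 at an unadjusted p below 0.05. In bulk tissue, fewer cells of a type and less RNA per cell cannot be told apart. Slc17a7, the vesicular glutamate transporter of cortical-type neurons, ran from 467 through 717 to 871 CPM in high-score libraries and from 29.9 through 364 to 658 in low-score ones. The low-score libraries thus reached far lower, to 29.9 CPM in F2 no-stress replicate 20 and 90.8 in F1 stress replicate 3. Tbr1, a factor of the same neurons, had 0.99 ± 0.39, and Neurod2 had 0.92 ± 0.42. The mean level of the 10 markers (mean log2(CPM + 1)) was 4.22 to 4.87 in high-score libraries and 2.41 to 4.69 in low-score ones. The high mean lay above the low mean in 4 of 4 groups.

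The striatal markers were less even. Their median was -0.157 without F2 stress replicate 15 and -0.281 without F2 no-stress replicate 16. Rgs9, a regulator of dopamine receptor signalling, ran from 63.3 through 107 to 324 CPM against 25.3 through 227 to 369, a difference of -0.70 ± 0.41. Their mean level was 5.73 to 8.185 in high-score and 4.37 to 8.23 in low-score libraries. By group its class gap was -0.614 and 0.0905 in the stress and no-stress lineage of F1, and 0.713 and -1.135 in those of F2. In F2 stress the low-score replicate 14 had the lowest striatal level of all, 4.37, and there the mean of logs was higher in high-score libraries while the fit gave a median of -0.34.

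**Figure D4:**
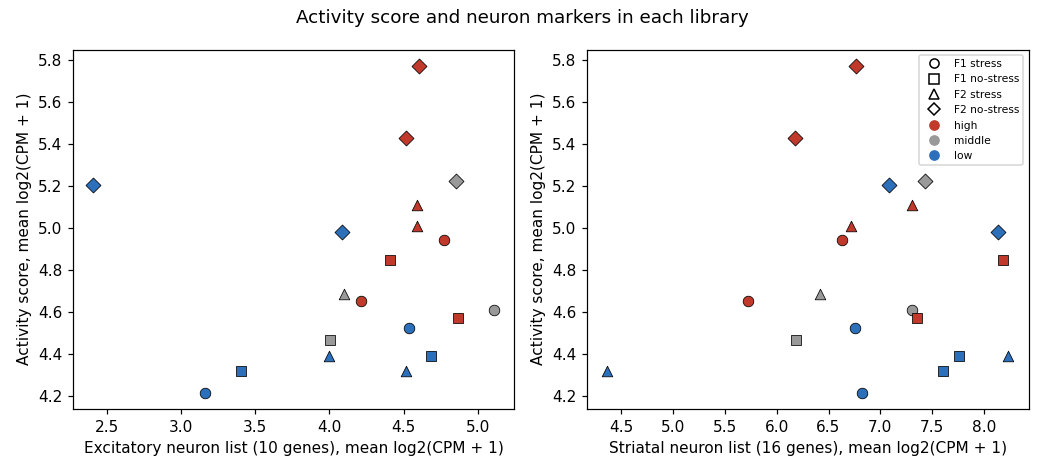
Activity score of each library against its mean level of 10 excitatory neuron markers (left) and 16 striatal neuron markers (right), all as mean log2(CPM + 1), with group as shape and class as colour. The library lowest in excitatory markers, F2 no-stress replicate 20 at 2.41, and the library lowest in striatal markers, F2 stress replicate 14 at 4.37, are low-score libraries.

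With the 2 marker levels as covariates, 24 of the 34 rapid genes lay above 0, with a median of 0.09. With replicate 14 of F2 stress and replicate 20 of F2 no-stress left out, 24 lay above 0, with a median of 0.10. Single genes differed in how far they moved under the covariates. Btg2 stood at 0.64, Egr2 at 0.59, Dusp1 at 0.45, Fosl2 at 0.44 and Jun at 0.32, while Klf10 went from 0.32 to 0.03 and Nr4a2 from 0.30 to -0.25. Of all genes, 8893 of 16717 lay above 0 with the covariates and 8032 without them.

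Of 40 delayed activity genes, which follow the rapid ones, 24 lay above 0, with a median of 0.05. Over all genes 48% lay above 0. With the marker covariates 29 of the 40 lay above 0, with a median of 0.085, while the median of all genes was then 0.011. Several of the single genes named below moved the other way, toward 0. At an unadjusted p below 0.05, 9 were higher and 0 lower, against 5.68% and 6.66% of all genes. The high-score mean of their level, a mean log2(CPM + 1) over the list, lay above the low-score mean in 4 of 4 groups. The gap was 0.0425 and 0.0973 in the stress and no-stress lineage of F1, and 0.317 and 0.142 in those of F2. The median difference of the 40 genes was less even. It was -0.014 and 0.078 in the stress and no-stress lineage of F1, and 0.226 and -0.008 in those of F2. Of 12 genes listed under kinases, phosphatases and G protein regulators, a group that also holds the potassium channel subunit Kcnf1, 10 lay above 0, with a median of 0.17, among them the phosphatase genes Dusp14 and Dusp5 at 0.45 ± 0.15 and 0.39 ± 0.15 and Kcnf1 at 0.42 ± 0.14. With the marker covariates these 3 stood at 0.17, 0.36 and 0.16. Of 11 secreted factors and processing enzymes 6 lay above 0, and these gave the largest single values. Bdnf, a neurotrophin, ran from 8.62 through 12.5 to 21.9 CPM against 1.83 through 4.63 to 13.4, a difference of 1.06 ± 0.32. Nptx2, a pentraxin that gathers AMPA receptors, ran from 22.6 through 31.6 to 50.9 CPM against 9.30 through 13.5 to 32.2, a difference of 0.92 ± 0.30. Nrn1, a membrane-anchored neurite factor, had 1.09 ± 0.46. Bdnf was lowest, at 1.83 CPM, in F2 no-stress replicate 20, the library lowest in Slc17a7. With the marker covariates the differences of Bdnf, Nptx2 and Nrn1 stood at 0.45, 0.53 and 0.34. Ptgs2, the inducible cyclooxygenase, ran from 5.70 through 8.05 to 13.3 CPM against 2.63 through 4.38 to 7.30, a difference of 0.79 ± 0.21 that stood at 0.61 with the covariates. Rheb, the GTPase upstream of mTORC1, had 0.23 ± 0.07, and 0.24 with the covariates. Other textbook delayed genes lay near 0 or below it, with Homer1 at -0.01 ± 0.17, Vgf at 0.01 ± 0.10, Scg2 at -0.11 ± 0.18, and the opioid precursors Penk at -0.35 ± 0.25 and Pdyn at -0.35 ± 0.27.

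Feedback genes of the MAP kinase pathway lay above 0 in 9 of 11, against 48% of all genes, with a median of 0.16. At an unadjusted p below 0.05, 3 were higher, against 5.68% of all genes. Dusp6, a phosphatase specific for ERK, ran from 27.0 through 36.3 to 43.6 CPM against 18.8 through 21.5 to 31.6, a difference of 0.57 ± 0.13. In F1 stress the library with the most Dusp6 was a low-score one, replicate 4 at 31.6 CPM among the 4 of the classes. Spry4, a Sprouty inhibitor of receptor kinases, had 0.37 ± 0.10, and Spred2 had 0.17 ± 0.07. With the marker covariates 9 of 11 lay above 0, with a median of 0.19.

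The machinery that carries activity to the nucleus had 16 of 38 genes above 0 and a median of -0.04. Over all genes the share above 0 was 48%, which also stands beside the other lists of this paragraph. Of the 38 genes, 3 were higher and 2 lower at an unadjusted p below 0.05, close to the 5.68% and 6.66% of all genes. These few are given as values. Mef2c had 0.44 ± 0.18, the calcineurin subunit Ppp3cb 0.20 ± 0.07 and the kinase Map2k1 0.17 ± 0.07. The calcineurin target Nfatc2 had -0.43 ± 0.13 and the CREB coactivator Crtc2 -0.23 ± 0.09. With the marker covariates Mef2c stood at 0.15, Ppp3cb at 0.11, Nfatc2 at -0.20 and Crtc2 at -0.14. Receptors for glutamate had 8 of 28 above 0 with a median of -0.08, Grik2 at -0.40 ± 0.12 and Grm8 at 0.56 ± 0.19 being the outermost by p. With the covariates Grik2 stood at -0.20 and Grm8 at 0.39. Genes of GABA synthesis and reception had 6 of 19 above 0 with a median of -0.075. Targets of the glucocorticoid receptor had 7 of 17 above 0 with a median of -0.02, and Plin4 and Arrdc2 had -0.78 ± 0.35 and -0.30 ± 0.12. Heat shock genes had 12 of 16 above 0 with a median of 0.12. Hsp90aa1, Dnajb1, Hspe1 and Dnaja1, all chaperones or cochaperones, were higher at an unadjusted p below 0.05 with 0.24, 0.15, 0.17 and 0.16. Of all genes tested, 5.68% were higher at that p. With the marker covariates the glutamate, GABA, glucocorticoid and heat shock lists had medians of -0.06, 0.05, -0.06 and 0.04.

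Measures of RNA makeup are given for the same split. Of 8 RNAs that stay in the nucleus or are very long, 8 lay below 0, with a median of -0.53 and 4 lower at an unadjusted p below 0.05. Of all genes tested, 6.66% were lower at that p. Meg3, an imprinted noncoding RNA, ran from 1700 through 1920 to 4360 CPM in high-score libraries and from 1440 through 3590 to 9030 in low-score ones, a difference of -0.72 ± 0.30. Kcnq1ot1 had -0.63 ± 0.23 and Neat1, the scaffold of paraspeckles, -0.54 ± 0.20. With replicate 14 of F2 stress and replicate 20 of F2 no-stress left out, the list's median was -0.20, with 7 of 8 below 0. Gene differences had a Spearman correlation of -0.215 with transcript length and -0.001 with GC content across genes, which are not independent replicates. With an offset for length and GC content, 30 rapid genes lay above 0 with a median of 0.22, and the nuclear RNAs had a median of -0.355. Mitochondrially encoded genes made up 6.68 to 8.78% of counts in high-score and 6.46 to 9.65% in low-score libraries, and 13 of 13 lay below 0, with a median of -0.10 and 0 at an unadjusted p below 0.05. The part of these measures in the results for rapid genes was not tested further.

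Markers of other cells had medians closer to 0. Oligodendrocyte markers lay below 0 in 11 of 11 with a median of -0.11 and with the marker covariates above 0 in 11. By group their median was -0.485 and -0.209 in the stress and no-stress lineage of F1, and 0.395 and -0.249 in those of F2. Blood markers had 0 of 7 above 0 with a median of -0.20, but their median was 0.109 in F1 and -0.527 in F2. Astrocyte, microglial and endothelial markers had medians of -0.02, -0.05 and -0.06, and central amygdala markers 0.07. Among interneuron genes Vip, a peptide of interneurons that inhibit other interneurons, ran from 6.86 through 16.1 to 21.3 CPM against 4.03 through 6.39 to 13.9, a difference of 1.02 ± 0.28 that stood at 0.53 with the marker covariates. Lhx6, a factor of interneurons from the medial ganglionic eminence, had -0.34 ± 0.14, and the nitric oxide synthase gene Nos1 had -0.37 ± 0.19. With the marker covariates Lhx6 stood at -0.03 and Nos1 at -0.29. Of the 10 interneuron genes 5 lay above 0, with a median of -0.05.

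**Figure D5:**
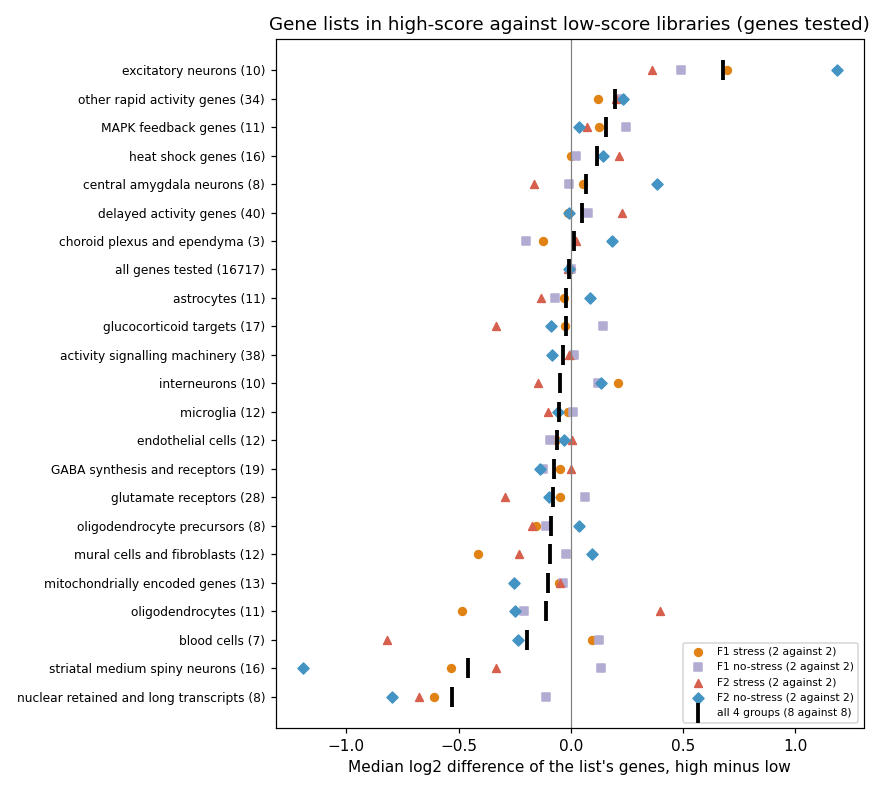
Median log2 difference (high minus low) of each gene list over all 4 groups (black bars, 8 against 8 libraries) and within each group (symbols, 2 against 2), with the number of genes tested. Excitatory neuron markers stand highest at 0.68, the other rapid genes follow at 0.20, and the nuclear retained RNAs stand lowest at -0.53. The striatal, oligodendrocyte and blood lists are among those that differ in sign between groups.

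The genes with the smallest p on each side were taken as values, since none passed edgeR's test. Genes with a mean CPM below 1 or a placeholder symbol, such as a Gm or Rik name, were left out of this choice. Coordinates are for GRCm38 (GENCODE M21), and each is a protein-coding gene. Klhdc8a (ENSMUSG00000042115, chr1:132298626-132307357), a kelch-repeat protein, ran from 24.2 through 31.6 to 41.1 CPM in high-score libraries and from 16.4 through 21.8 to 26.9 in low-score ones, a difference of 0.61 ± 0.12. Adcy2 (ENSMUSG00000021536, chr13:68620043-68999541), an adenylyl cyclase, ran from 103 through 139 to 154 CPM against 93.0 through 104 to 118, a difference of 0.32 ± 0.06. Atf4 (ENSMUSG00000042406, chr15:80255184-80257541), the factor of the integrated stress response, had 0.26 ± 0.05, and the kinase gene Nim1k (ENSMUSG00000095930, chr13:119710094-119755882) had 0.27 ± 0.06. Nim1k was the only one of the 5 whose classes did not overlap over all groups, at 19.1 to 22.3 against 13.9 to 17.8 CPM. Dusp6, described above, was the other.

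On the lower side, Col6a4 (ENSMUSG00000032572, chr9:105989454-106096783), a collagen VI chain, ran from 1.1 through 2.19 to 4.67 CPM in high-score libraries and from 3.36 through 7.62 to 15.8 in low-score ones, a difference of -1.67 ± 0.28. Car12 (ENSMUSG00000032373, chr9:66713686-66766845), a membrane carbonic anhydrase, had -0.59 ± 0.11, and Adgrl2 (ENSMUSG00000028184, chr3:148815583-148990555), a latrophilin, had -0.41 ± 0.08. Bhlhe41 (ENSMUSG00000030256, chr6:145858243-145865558), a repressor in the circadian clock, had -0.28 ± 0.06, and Stard13 (ENSMUSG00000016128, chr5:151037510-151233836) had -0.45 ± 0.09. For Bhlhe41 and Stard13 both high libraries lay below both low ones in 4 of 4 groups, although the classes overlapped across groups. The genes were picked by smallest p, so such separation, that of Nim1k included, is no added result. The share of all genes with it is not given here. The adjusted p of these 10 genes ran from 0.333 to 0.355 in edgeR. DESeq2 called all of them except Nim1k, with an adjusted p of 2.87e-05 for Col6a4. With the marker covariates Col6a4 stood at -1.47, Car12 at -0.58, Stard13 at -0.41, Bhlhe41 at -0.29 and Adgrl2 at -0.285. On the higher side Klhdc8a stood at 0.57, Dusp6 at 0.44, Adcy2 at 0.33, Atf4 at 0.27 and Nim1k at 0.21.

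Likeness to the score was also measured over all 20 libraries, with gene and score centred within groups. These correlations are the extremes among genes outside the lists with a mean CPM of at least 1, leaving out placeholder symbols such as Gm or Rik names. They were taken over libraries that also differ in neuron markers, and are given as a description. Highest were Egln3, an oxygen-sensing prolyl hydroxylase, with a Pearson's r of 0.816, then Snrpd3, Cdc42se1, Lrp12 and Lrrc57 with 0.805 to 0.812. Egln3 ran from 9.06 to 18.9 CPM in high-score libraries and from 5.05 to 13.8 in low-score ones. Lowest were Mroh7 and Myo1a with -0.840 and -0.811, then Pld2, Bbs2 and Mrgbp with -0.782 to -0.769.

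The split was also read within each generation. In F1, 0 genes were called by edgeR and 405 had an unadjusted p below 0.05, 177 higher (1.02%) and 228 lower (1.32%). In F2, 0 were called and 1969 had an unadjusted p below 0.05, 940 higher (5.44%) and 1029 lower (5.95%), while DESeq2 called 54 (0.361%). The difference of the gap between F2 and F1 was tested itself and gave 0 calls, a smallest adjusted p of 0.998, 517 genes at an unadjusted p below 0.05 (2.99%) and 1 call by DESeq2, Ndst4. A larger effect in F2 is therefore not shown by the unequal counts. The difference between stress and no-stress lineage gave 0 calls, 355 at an unadjusted p below 0.05 (2.05%) and 0 by DESeq2.

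F1 and F2 share no library, so the direction of genes picked in one could be read in the other. Of the 177 genes higher in F1, 125 (70.6%) lay above 0 in F2, against 46.7% of all genes. Of the 228 lower ones 175 (76.8%) lay below 0, against 53.3%. Read the other way, 748 of 940 (79.6%) and 775 of 1029 (75.3%) had the same sign in F1, against 49.9% and 50.1%. Genes vary together and are not independent replicates, so these shares are a description. The high-score mean lay above the low-score mean in 4 of 4 groups for the excitatory marker level and in 0 of 4 for the nuclear RNA level. Their part in the shared signs was not tested. Among rapid genes the median was 0.14 in F1 and 0.24 in F2, and among excitatory neuron markers 0.55 and 0.85. For Egr2 the values were 0.24 in F1 and 1.24 in F2, for Jun 0.28 and 0.83, and for Fosl2 0.46 and 0.54.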

How the data were processed

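RNA from amygdala punches of 20 mice was sequenced after TruSeq stranded poly-A preparation, per the labels' protocols. STAR 2.5.3a and the build GRCm38 are named in the submitters' processing notes. Which tool counted reads, with which annotation and strand setting, is not stated in these sources. The authors deposited integer counts by Ensembl gene for every mouse; their totals lie within 13654890 to 13714805, a near-common total whose origin is not described. Groups follow the labels. Each mouse has its own replicate number, so none are paired.

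From these counts, CPM and the activity score were computed (pseudocount 1), and 8 high-score and 8 low-score libraries taken within groups. The test was edgeR 4.0.16 (R 4.3.3), quasi-likelihood with robust dispersion, TMM factors (0.956 to 1.042), filterByExpr and group as a block, over 16723 genes of 29671. The 6 score genes were removed before Benjamini-Hochberg adjustment, and a call needed an adjusted p below 0.05. The biological coefficient of variation was 17.3%. Contrasts for F1, F2 and the interactions used 8 cell means. Marker covariates were the mean log2(CPM + 1) of the striatal and excitatory lists, centred within groups. GC content and length (GENCODE M21, 16688 genes matched) entered as a spline offset with 5 degrees of freedom. The alternatives were DESeq2 1.42.0, limma-voom (limma 3.58.1), other normalizations, filters and scores, and each library or group left out. Figures used matplotlib 3.10.9.

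Named genes were the 5 with the smallest p on each side (mean CPM of at least 1), all score and other rapid activity genes, up to 4 per other list by p, and the 5 most and 5 least like the score. The choices by smallest p on each side and by likeness to the score left out genes below a mean CPM of 1. They also left out genes with no symbol or a placeholder one (Gm, Rik or clone names). Other genes are named as chosen by an unadjusted p below 0.05 or after their values were seen. The members and the gene lists were chosen with earlier results of these data known.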

Additional observations from a re-analysis of the deposited data

Results flagged for a closer look

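Among 27 measures (scores, score genes, list levels and technical values) in 4 groups of 5 libraries, 2 of 108 group tests found a library far from the others of its group, where chance gives about 1 in 20. Nr4a1 stood at 22.64 CPM in F1 no-stress replicate 7, a low-score library, while the others of the group lay between 38.99 and 44.1 CPM. The gap was 0.762 of the group's range, above the limit of 0.71. This gene is part of the score that chose the libraries, so its low value helped place this library in the low class. The flag is no added result about the split.

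The oligodendrocyte marker level was 5.811 in F2 stress replicate 14, also a low-score library and the one lowest in striatal markers, while the others of the group lay between 6.989 and 7.351. The gap was 0.765 of the range. Results for the rapid genes without this library and F2 no-stress replicate 20 are given above.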

How the results depend on the processing

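The call count of 0 in edgeR held with limma-voom, relative log expression factors, library totals, a stricter filter (1 CPM in 8 libraries), an adjusted p below 0.1, both other score scales, the score as a covariate, no group block, the length and GC content offset, the marker covariates, removal of mitochondrial genes, and removal of F1 stress, F2 stress or F2 no-stress. DESeq2 called 22 (7 higher, 15 lower), and no low-count filter gave 2, Car12 lower (1) and Klhdc8a higher (1). Without F1 no-stress 1 was called, Car12, lower (1). With each library left out, calls ran from 0 to 4, higher from 0 to 0 and lower from 0 to 4; the 4, without F1 no-stress replicate 9, were Car12, Col6a4, Lrch4 and Adgrl2. In F2 DESeq2 called 54, and for the difference between F2 and F1 it called 1. The cause of these differences was not tested.

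With each library left out, rapid genes above 0 ran from 27 (without F2 no-stress replicate 20) to 31, with medians of 0.144 to 0.254. Delayed genes above 0 ran from 22 to 27, excitatory markers from 8 to 10, striatal markers below 0 from 16 to 16, with medians from -0.657 (without F2 stress replicate 14) to -0.157 (without F2 stress replicate 15), nuclear RNAs below 0 from 7 to 8, and heat shock genes above 0 from 11 to 13. With the marker covariates, 5 excitatory markers lay above 0 and 8 striatal markers below 0, by construction of that fit. Scoring on TMM-scaled CPM put 4 F1 libraries in another class, and scoring on standardised genes 0. The values of 135 named genes were each recomputed under 35 settings. Of the recomputed values 4560 lay within 1 SE of the reported one, and 101, all in 32 genes, had the other sign. Standardised scores kept every class, so that setting repeated the main fit, its call count included. The adjusted p limit of 0.1 likewise could change no gene value. The near-common totals hide the sequencing depth, so it cannot be weighed. No paired analysis was possible because each mouse has a replicate number of its own.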
